A study of Homo sapiens with 28 samples.

Results

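The comparison set nuclear RNA of MDA-MB-453 cells kept in JQ1-VHL against nuclear RNA of cells kept in IBET151-VHL. It used 3 libraries of each compound, 6 of the 28 libraries of the series, which were chosen by their labelled treatment and fraction alone, and it covered every gene measured. MDA-MB-453 is an established human breast cancer line of luminal, HER2-type cells. All 28 libraries came from cells given a compound or DMSO for 3 h, with 0.1 mM 4-thiouridine in the medium for the 60 min before harvest, and the cells carried no labelled genetic change. The cells were trypsinised and mixed with 10% Drosophila S2 cells. After digitonin treatment the pelleted nuclei were taken. The series is about the fate of new transcripts in and beyond the nucleus while transcription is blocked for a short time. The 3 nuclear DMSO libraries served as the background, and nuclei of cells given the parent inhibitors JQ1 and IBET151 are cited only where a library stood apart. The labels give neither the doses nor the linkers, so it is not known whether the compounds were compared at matched doses, and 1 pair of compounds was compared.

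JQ1 and IBET151 both occupy the acetyl-lysine pocket of BET bromodomain proteins, which hold P-TEFb and Mediator at active promoters and enhancers. JQ1 is a thienotriazolodiazepine, whereas IBET151 is an imidazoquinoline that carries a dimethylisoxazole. In JQ1-VHL and IBET151-VHL each of these is joined to a ligand of VHL, the substrate receptor of a CUL2 ubiquitin ligase, which makes the molecule a degrader of the proteins that its BET ligand binds. P-TEFb is the kinase, made of CDK9 and cyclin T1 or T2, that releases paused RNA polymerase II into elongation. 4-thiouridine enters RNA made during the labelling, and alkylation turns it into a T-to-C change in the read, so reads with such a change (T>C reads) mark newly made RNA. The 3′ end libraries sampled polyadenylated RNA, so a T>C read stands for a transcript that was both made and polyadenylated in that time.

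The values analysed were the authors' ERCC-scaled units, in which each library's reads are scaled to ERCC RNA that was added per mass of nuclear RNA. They are therefore amounts per RNA mass and not per cell, and fewer cells and less RNA per cell cannot be told apart in them. The JQ1-VHL libraries held 22120367, 23718994 and 22368961 reads, and the IBET151-VHL libraries 17851589, 23028692 and 19571356. One read was worth 0.670 and 0.776 units in the libraries of replicate 1 and 1.73 to 2.24 units in the other 4. The summed value of replicate 1 was the lowest of its group under both compounds, and genes were compared within the 3 same-numbered pairs. The labels do not say what a replicate number stands for or whether replicates were separate cultures, so p-values measure the spread between these libraries, which may be technical. All 7 markers of luminal epithelial lines were read in each of the 6 libraries, at a summed 0.457 to 0.508% of the library under JQ1-VHL and 0.460 to 0.509% under IBET151-VHL. The 6 basal markers summed to 0.0012 to 0.00141% and 0.00123 to 0.0018%. The 10 stromal and immune markers in the table summed to 0.0125 to 0.0151% and 0.00953 to 0.0162%, with at most 3 of them at 0 in a library.

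One library of the comparison stood apart in its interferon-response genes. The 21 such genes in the table summed to 0.149 and 0.202% of the library in IBET151-VHL replicates 1 and 2 but to 0.641% in replicate 3. Under JQ1-VHL the sums were 0.135, 0.190 and 0.145%, so the partner of that library did not share its level. The same high level occurred in replicate 3 of DMSO, at 0.863%, and in replicate 3 of JQ1, at 0.830%, while the IBET151 libraries held 0.220 and 0.611%. IFI27, an interferon-induced mitochondrial protein, read 49.6, 205 and 244 units under JQ1-VHL and 61.3, 206 and 3052 under IBET151-VHL. OAS2, which makes the 2-5A messenger of the antiviral response, read 21.4, 73.9 and 64.4 against 31.1, 96.9 and 647. Neither gene passed, with log2 differences of -1.32 (adjusted p = 0.169) and -1.40 (adjusted p = 0.121), and without pair 3 these were -0.16 and -0.45. IFI6 and OAS1, named after their values were seen, had 43737 against 214832 units and 382 against 1901 units in pair 3. Of 20 interferon-response genes tested, 0 passed in limma in either direction, with a median log2 difference of -0.47 and, without pair 3, of 0.10. What this library contributed to other genes was not tested beyond leaving out pair 3, and the counts of genes called in the nucleus are therefore given with and without that pair.

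**Figure D1:**
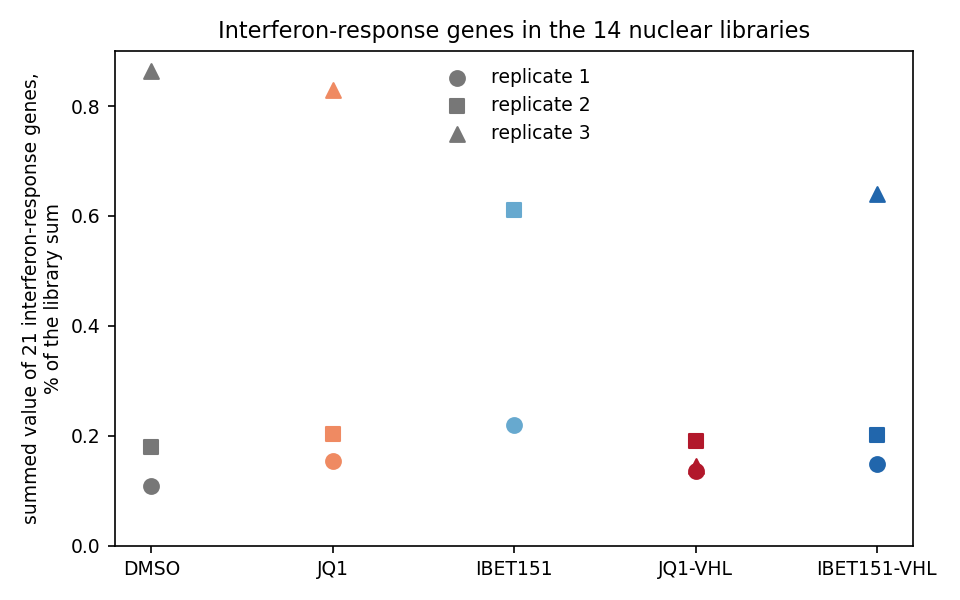
Summed value of 21 interferon-response genes, as a percentage of each library's sum (vertical axis), in the 14 nuclear libraries by treatment (horizontal axis), with a marker for each replicate number. IBET151-VHL replicate 3 lies at 0.641%, whereas the 3 JQ1-VHL libraries lie between 0.135 and 0.190%.

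Newly made RNA took a larger share of the reads under JQ1-VHL than under IBET151-VHL in each of the 3 pairs. T>C reads made up 1.92, 2.36 and 2.41% of reads in the JQ1-VHL libraries, a mean of 2.23% ± 0.27 (SD, n = 3). In the IBET151-VHL libraries they made up 1.72, 1.33 and 1.10%, a mean of 1.38% ± 0.32 (SD, n = 3). The groups did not overlap. The DMSO nuclei held 8.02, 6.34 and 2.25% T>C reads, so all 6 degrader libraries lay below DMSO replicates 1 and 2, and JQ1-VHL replicates 2 and 3 lay above DMSO replicate 3. The difference was 0.847 percentage points, or 1.61-fold, with an exact two-sided permutation p of 0.1, the smallest that 3 against 3 libraries allow (0.3 after Benjamini-Hochberg adjustment over 3 such tests). Pair 1 differed by 0.193 points, pair 2 by 1.04 and pair 3 by 1.31. The Wilson 95% interval of each share was at most 0.00635 points on either side, which covers counting error only, so the spread between replicates set the error. The 4 nuclear libraries with a high interferon sum each held the lowest T>C share of their group: DMSO replicate 3, JQ1 replicate 3 (1.94%, against 6.67 and 5.69%), IBET151 replicate 2 (3.64%, against 5.57%) and IBET151-VHL replicate 3 (1.10%). The part of this in the difference between the degraders was not tested beyond leaving out pair 3, without which the means were 2.14 and 1.52%, a difference of 0.616 points (exact two-sided permutation p = 0.333, the smallest that 2 against 2 libraries allow). No library without 4-thiouridine was analysed here, and so the share of T>C reads that arises without label is unknown.

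**Figure D2:**
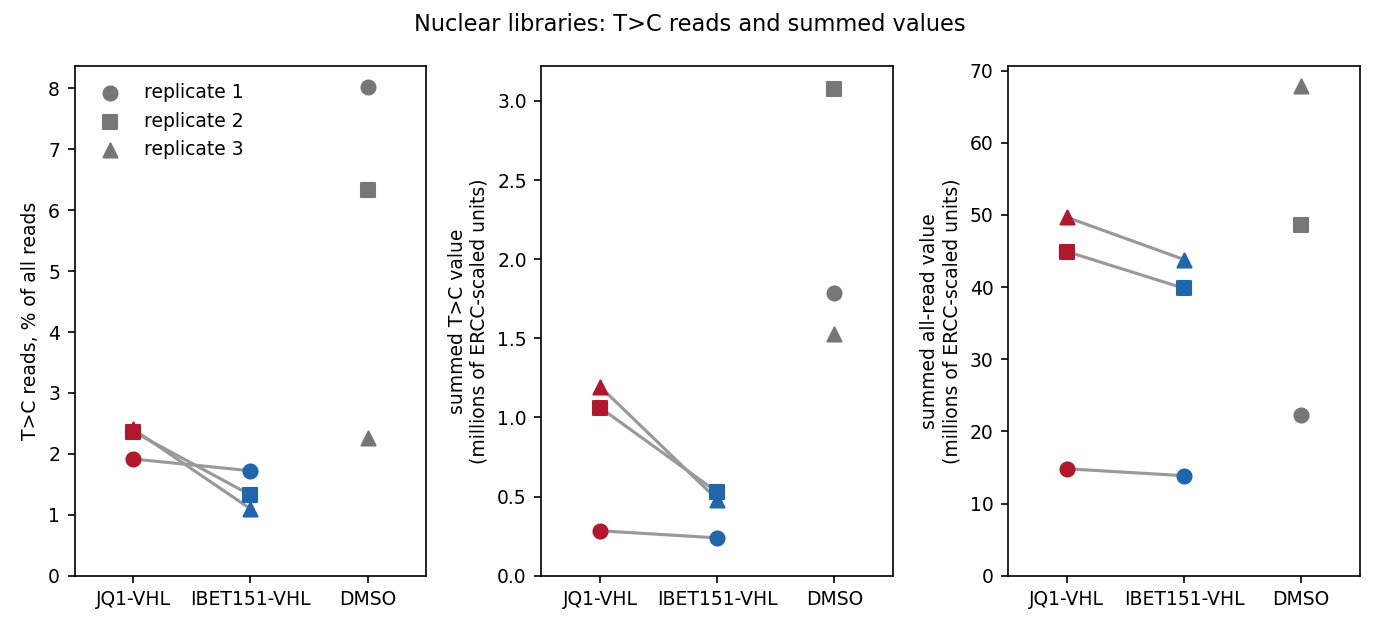
T>C reads as a percentage of all reads, the summed T>C value and the summed all-read value (vertical axes, the sums in ERCC-scaled units as marked) for nuclei of JQ1-VHL, IBET151-VHL and DMSO (horizontal axes), 1 point per library, with lines joining same-numbered libraries of the 2 degraders. All 3 lines of the T>C share run downwards to IBET151-VHL, from 1.92, 2.36 and 2.41% to 1.72, 1.33 and 1.10%.

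The amount of newly made RNA differed in the same direction. The summed T>C value was 847140 ± 492400 units (SD, n = 3) under JQ1-VHL and 415790 ± 155200 (SD, n = 3) under IBET151-VHL, and the pair ratios were 1.19, 2.01 and 2.49. With the low replicate 1 in both groups the sums overlapped, and the exact two-sided permutation p was 0.3 (0.45 adjusted). Without pair 3 the means were 673110 and 383290 units, and the log2 difference was 0.63 instead of 0.86. Summed over all reads the pair ratios were only 1.07, 1.13 and 1.13, with an exact two-sided permutation p of 0.5. Most of the polyadenylated RNA in these nuclei carried no T-to-C change, and its total differed little between the compounds within a pair.

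Gene by gene, the all-read values were shifted towards JQ1-VHL. Of 13369 genes tested, 11711 had a log2 difference above 0, with a median of 0.22. The pair medians were 0.14, 0.26 and 0.28, and 67.6, 83.6 and 81.0% of genes were higher under JQ1-VHL in pairs 1, 2 and 3. After adjustment 379 genes passed as higher under JQ1-VHL, which is 2.83% of those tested, and 1 gene, FAM43A, passed as lower, 0.00748% (limma with the pair as a block, Benjamini-Hochberg adjusted p under 0.05). These calls rest on the block, on pair 3 and on the filter on low values, since with no filter 2 genes passed. Without the block 0 genes passed, and 41 had an unadjusted p under 0.05. Without pair 3, 0 genes passed in limma or in edgeR's quasi-likelihood test on recovered reads, with a smallest adjusted p of 0.286 in limma, although 2125 genes had an unadjusted p under 0.05 and the median was 0.19. Leaving out pair 1 gave 2249 higher and 24 lower genes, and leaving out pair 2 gave 54 and 5. The common shift depends on the scale. When each library was rescaled so that its median gene was level (median-ratio scaling), the median became -0.02, and 103 genes passed as higher (0.77%) and 27 as lower (0.202%), 100 of the 103 being among the 379.

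**Figure D3:**
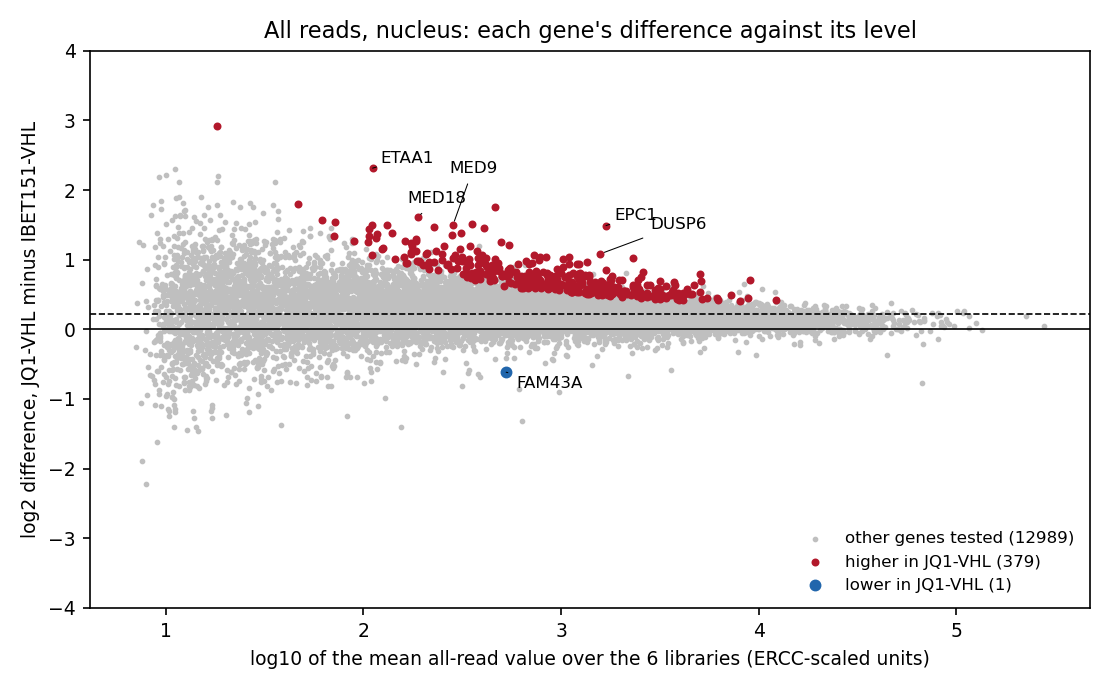
Log2 difference in all-read value, JQ1-VHL minus IBET151-VHL (vertical axis), against the log10 mean value over the 6 libraries (horizontal axis) for the 13369 genes tested. The dashed line is the median, 0.22, the 379 genes that passed as higher are in red, and FAM43A, the 1 gene that passed as lower, is in blue.

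EPC1 had the smallest p of the named genes and is printed with its promoter, as are ETAA1, which had the largest difference among the named genes, and MED18, whose promoter holds each of the 3 motifs that were more frequent among the promoters of the 379 genes. The sequences are 250 bases before to 50 bases after the gene start from RefSeq (GRCh38.p14), 5′ to 3′ on the strand of the gene. Capitals mark matches, on either strand, to the motifs searched. EPC1 lies at chr10:32378720-32379019 on the minus strand, ETAA1 at chr2:67397083-67397382 on the plus strand and MED18 at chr1:28328790-28329089 on the plus strand.
EPC1: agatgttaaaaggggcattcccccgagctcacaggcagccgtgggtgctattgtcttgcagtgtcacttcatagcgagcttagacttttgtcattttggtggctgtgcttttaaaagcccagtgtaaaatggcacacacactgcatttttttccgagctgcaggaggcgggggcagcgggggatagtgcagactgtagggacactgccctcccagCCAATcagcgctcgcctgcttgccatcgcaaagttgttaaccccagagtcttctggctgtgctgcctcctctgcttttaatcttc
ETAA1: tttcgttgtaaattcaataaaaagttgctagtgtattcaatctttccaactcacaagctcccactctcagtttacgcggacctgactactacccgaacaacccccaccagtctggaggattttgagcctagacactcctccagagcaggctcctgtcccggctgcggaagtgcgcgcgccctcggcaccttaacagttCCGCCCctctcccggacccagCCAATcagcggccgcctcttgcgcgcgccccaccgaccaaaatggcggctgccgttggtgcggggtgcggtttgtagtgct
MED18: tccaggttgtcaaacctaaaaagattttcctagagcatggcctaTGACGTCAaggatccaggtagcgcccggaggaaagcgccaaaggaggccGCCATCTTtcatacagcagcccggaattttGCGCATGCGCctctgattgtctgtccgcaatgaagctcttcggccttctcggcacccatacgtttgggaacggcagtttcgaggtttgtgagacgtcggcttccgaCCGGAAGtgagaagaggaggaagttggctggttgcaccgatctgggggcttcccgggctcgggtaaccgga
In EPC1 the capitals mark a CCAAT box at base 216. In ETAA1 they mark a GC box at base 199 and a CCAAT box at base 220. In MED18 they mark a cyclic-AMP response element (CRE) at base 45, a YY1 motif at base 94, an NRF1 motif at base 124 and an ETS motif at base 230.

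Promoters were in the RefSeq table for 306 of the 379 higher genes and for 10646 of the genes tested. The ETS motif CCGGAAG, bound by ETS-family factors such as GABPA, occurred in 30.7% of the 306 promoters and in 18.5% of those of all genes tested. The YY1 motif AAGATGGC occurred in 15.4 and 5.11%, and the palindromic NRF1 consensus in 5.23 and 2.24%. ETS and YY1 motifs stood together in 5.23% of the promoters of higher genes and in 1.21% of all, and they overlapped in 0 and 3 promoters. Other elements were about as frequent in both sets: the GC box GGGCGG in 69.0 and 68.5%, the CCAAT box in 40.2 and 36.8%, the E-box CACGTG in 8.17 and 9.73%, the CRE TGACGTCA in 3.92 and 3.14% and the TATA box TATAAA in 3.92 and 5.93%. These shares are descriptions with no test, and a match of letters is not a bound site.

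EPC1 encodes a scaffold of the NuA4 histone acetyltransferase complex. Its values were 1024, 3402 and 3014 units under JQ1-VHL, 349, 1135 and 1198 under IBET151-VHL and 4398, 7872 and 7036 in DMSO. Every pair was higher under JQ1-VHL, by 1.55, 1.58 and 1.33 on the log2 scale, although replicate 1 of JQ1-VHL lay among the IBET151-VHL libraries. The fitted log2 difference was 1.49 (SE 0.11, adjusted p = 0.00284), a 2.81-fold difference on the log2(value + 1) scale used throughout. Under median-ratio scaling it was 1.25 (adjusted p = 3.46e-06), and without pair 3 it was 1.57 (adjusted p = 0.286).

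ETAA1 encodes an activator of the ATR checkpoint kinase at stalled replication forks. It read 69.0, 288 and 207 units under JQ1-VHL, 17.1, 53.6 and 33.6 under IBET151-VHL and 335, 642 and 492 in DMSO. The groups did not overlap, and the log2 difference was 2.31 (SE 0.27, adjusted p = 0.022), or 4.97-fold. It is 1 of 3 genes that both passed and had all JQ1-VHL libraries above all IBET151-VHL libraries; the others were EBLN2, at 43.5, 121 and 120 against 21.7, 31.1 and 33.6 units, and a gene without a symbol. Complete separation was rare in general, at 81 genes above (0.606%) and 12 below (0.0898%), with replicate 1 low under both compounds.

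KTI12, an Elongator-associated protein, read 31.5, 157 and 135 against 10.9, 41.5 and 56.0 units (2.90-fold, adjusted p = 0.0374). BCDIN3D, a methyltransferase of the 5′ end of histidine tRNA, read 46.2, 199 and 235 against 12.4, 86.5 and 82.8 (2.83-fold, adjusted p = 0.0329). The zinc-finger genes ZBTB6 (2.76-fold, adjusted p = 0.0252) and ZNF507 (2.82-fold, adjusted p = 0.0293) passed as well. For these 4 genes the IBET151-VHL library lay below the JQ1-VHL library in each pair.

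Several of the larger differences were in genes of few exons. Of the higher genes with gene structure in GENCODE release 29, 6.70% had 1 exon, against 2.53% of all genes tested, and 16.1% had 2 exons or fewer, against 7.07%. The median number of exons was 7 against 9, and the median gene span was 23749 bases against 36566. By exon class the percentage of genes that passed in either direction was 7.81 at 1 exon, 5.86 at 2, 3.83 at 3 to 4, 2.79 at 5 to 8, 2.41 at 9 to 16 and 1.79 at 17 or more. The median log2 difference of a class varied little, from 0.26 at 1 exon to 0.21 at 17 or more. Further higher genes were chosen after their values were seen, and their exon numbers are not given here, so they are not examples of few exons. They include DDX28, a mitochondrial RNA helicase (log2 difference 1.45), MOCS3, of molybdenum cofactor synthesis (1.38), SMG8, of nonsense-mediated decay (1.35), YOD1, a deubiquitinase (1.25), ANKRD49 (1.04), ABT1, an activator of basal transcription (1.03), and MAP3K1, a MAP kinase kinase kinase (1.00), all higher with adjusted p under 0.05.

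The higher genes also had a larger T>C share in cells given DMSO. Their median T>C share in DMSO nuclei was 11.9%, against 6.33% over all genes tested that had one. When genes were ranked by that share into 5 equal groups, 0.159, 0.636, 2.27, 5.01 and 7.04% of them passed in either direction, from the lowest to the highest. The median log2 difference ran from 0.14 in the lowest group to 0.37 in the highest, and without pair 3 from 0.11 to 0.32. C19orf18, named after its values were seen, lay above all DMSO libraries under both compounds. It read 103, 375 and 309 units under JQ1-VHL, 43.5, 157 and 114 under IBET151-VHL and 18.6, 30.1 and 15.3 in DMSO.

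**Figure D4:**
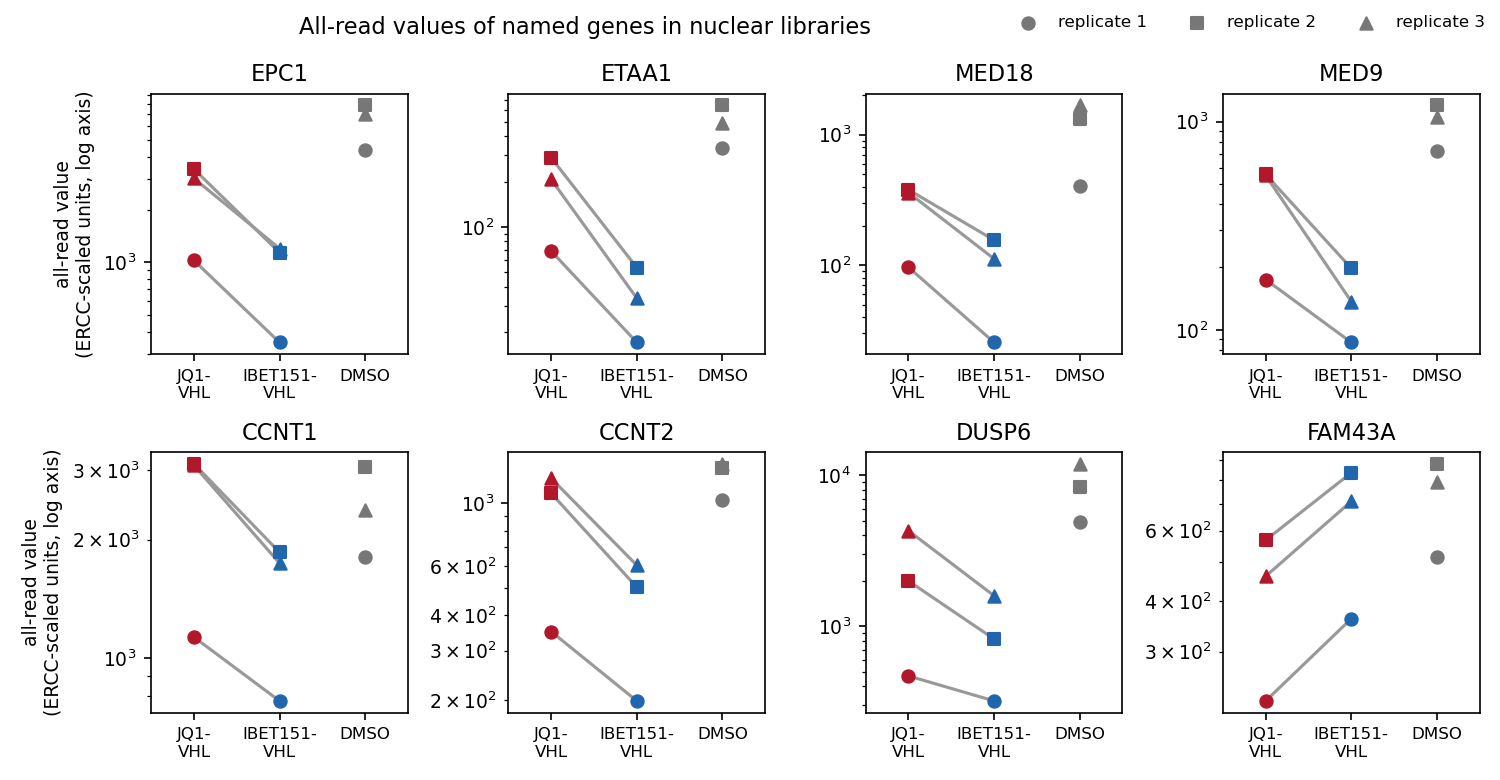
All-read values (vertical axes, ERCC-scaled units, log scale) of EPC1, ETAA1, MED18, MED9, CCNT1, CCNT2, DUSP6 and FAM43A in nuclei of JQ1-VHL, IBET151-VHL and DMSO (horizontal axes), 1 point per library with a marker per replicate, and lines joining same-numbered degrader libraries. The lines of the first 7 genes run downwards to IBET151-VHL in all pairs, and those of FAM43A, from 226, 568 and 462 to 363, 836 and 710 units, run upwards.

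Mediator, the complex that links enhancer-bound factors to RNA polymerase II, included 2 of the largest differences. Of 44 Mediator and polymerase II genes tested, 6 passed as higher, against 2.83% of all genes tested, and 0 as lower, with a median log2 difference of 0.34 against 0.22 over all genes. Without pair 3, where no gene of any list passed in limma, the median was 0.34 against 0.19. MED18, a head-module subunit, read 96.5, 379 and 360 units under JQ1-VHL, 25.6, 156 and 112 under IBET151-VHL and 405, 1330 and 1678 in DMSO (log2 difference 1.61, SE 0.22, adjusted p = 0.0252). MED9, a middle-module subunit, read 174, 557 and 551, then 87.0, 197 and 137, and 723, 1196 and 1048 in DMSO (2.82-fold, adjusted p = 0.0273). Replicate 1 of JQ1-VHL overlapped the IBET151-VHL range for both genes, while each pair differed in the same direction. The other 4 that passed were MED30 (1.08), MED10 (0.81), MED13 of the kinase module (0.62) and MED4 (0.56), of which MED30 and MED10 were named after their values were seen.

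Both cyclins of P-TEFb passed as higher. CCNT2 read 350, 1085 and 1226 units under JQ1-VHL, 199, 503 and 602 under IBET151-VHL and 1026, 1334 and 1381 in DMSO, a log2 difference of 0.98 (adjusted p = 0.0252). CCNT1 read 1130, 3116 and 3090, then 778, 1856 and 1742, and 1810, 3053 and 2375 in DMSO, a log2 difference of 0.70 (adjusted p = 0.0273). In replicates 2 and 3 of JQ1-VHL, CCNT1 lay above the DMSO libraries of the same number and CCNT2 below them, while CCNT2 lay above DMSO replicate 1. Under median-ratio scaling CCNT2 still passed (0.74, adjusted p = 0.0115) and CCNT1 missed the threshold (0.47, adjusted p = 0.0614). CDK9, the kinase subunit, had a log2 difference of 0.87 and missed it too (adjusted p = 0.0572). Of 28 P-TEFb and elongation genes tested these 2 cyclins alone passed (7.14%, against 2.83% of all genes). A count of 2 genes says little about the list, whose median was 0.30 and, without pair 3, 0.26.

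Genes of mRNA export and of nuclear speckles, the bodies in which splicing factors gather, were represented by 2 lists. Of 31 mRNA export genes tested, 6 passed as higher (19.4%, against 2.83% of all genes tested) and 0 as lower. Their median log2 difference was 0.31, against 0.22 over all genes. Without pair 3 it was 0.25, against 0.19. NXT1, which pairs with NXF1 to form the bulk mRNA export receptor, read 156, 618 and 533 units under JQ1-VHL, 94.7, 327 and 316 under IBET151-VHL and 363, 1219 and 2126 in DMSO (0.79, adjusted p = 0.0411). RBM15, an RNA-binding protein of the methyltransferase and export machinery, read 415, 1235 and 1140 against 208, 564 and 690 (0.95, adjusted p = 0.0273). The others were THOC1 of the THO complex (0.76), SARNP (0.54) and ZC3H11A (0.45), which act with the TREX complex, and RAE1 of the nuclear pore (0.53), of which THOC1 and ZC3H11A were named after their values were seen. All 6 were higher in each pair. NUP153, a nuclear pore basket protein, had 0.59 and an adjusted p of 0.0557. Of 32 speckle and SR protein genes tested, 6 passed as higher (18.8%, against 2.83% of all genes) and 0 as lower. Their median was 0.28 and, without pair 3, 0.24. CLK2, a kinase that phosphorylates SR proteins, read 1789, 6041 and 6002 against 1195, 3910 and 3332 units (0.69, adjusted p = 0.0273). Its relative CLK3 read 269, 862 and 1020 against 148, 516 and 506 (0.87, adjusted p = 0.032). The rest were DYRK1A (0.55), SRSF4 (0.52), MAGOH of the exon junction complex (0.50) and ACIN1 (0.50), of which MAGOH and ACIN1 were named after their values were seen. 

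The list of the CUL2 ubiquitin ligase that the degraders recruit also held genes outside the ligase itself, such as UBA3 and COPS5. It had 3 of 16 genes called higher (18.8%, against 2.83% of all genes) and 0 lower, with a median log2 difference of 0.26. UBA3, the catalytic subunit of the NEDD8-activating enzyme, read 661, 2294 and 2275 units under JQ1-VHL and 403, 1247 and 1444 under IBET151-VHL (0.75, adjusted p = 0.0273). CUL2, the scaffold of the ligase, had 0.61, and COPS5, the deneddylase of the COP9 signalosome, 0.63. VHL itself had 0.21 with a 95% interval of -0.09 to 0.51 and did not pass. Among 31 VHL and HIF target genes DDIT4, an inhibitor of mTORC1, and EGLN2, a HIF prolyl hydroxylase, passed as higher, at 0.79 and 0.60. These 2 genes were 6.45% of the list, against 2.83% of all genes, a count that says little about it. The list median, 0.22, was that of all genes tested.

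Among 18 MAP kinase feedback genes 2 passed as higher (11.1%, against 2.83% of all genes) and 0 as lower, again a count that says little about the list. DUSP6, the ERK phosphatase, read 469, 1995 and 4289 units under JQ1-VHL, 321, 824 and 1592 under IBET151-VHL and 4888, 8349 and 11883 in DMSO (log2 difference 1.08, SE 0.17, adjusted p = 0.0273). IER3 had 0.70 (adjusted p = 0.0366). The list median was 0.26 and, without pair 3, 0.10. Luminal identity was represented by 27 luminal and HER2 genes, of which 2 passed as higher (7.41%, against 2.83% of all genes) and 0 as lower. Their median was 0.13 and, without pair 3, 0.09. FOXA1, the pioneer factor of luminal enhancers, read 866, 3527 and 4074 units under JQ1-VHL, 581, 2448 and 2445 under IBET151-VHL and 5941, 12596 and 23425 in DMSO (0.61, adjusted p = 0.032). TFAP2C, an AP-2 factor, had 0.63 (adjusted p = 0.033). GATA3 had 0.24 with a 95% interval of 0.04 to 0.43 (adjusted p = 0.122) and ERBB2, which encodes HER2, had 0.13 with an interval of -0.11 to 0.37, and neither passed.

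In the remaining lists few or no genes passed, to be set against the 2.83% of all genes tested that passed as higher. ZFP36L1 (0.58) and IER3 were the 2 of 40 short-lived mRNAs, CDC25A (0.75) the 1 of 29 cell cycle genes, MDM2 (0.51) the 1 of 24 p53 target genes and SDHD (0.55) the 1 of 43 respiratory chain genes, all higher. Of 77 ribosomal protein genes 0 passed in limma in either direction, with a median of 0.15, and 0 passed among 19 histone genes (median 0.09), 14 immediate-early genes (0.11), 20 sterol synthesis genes (0.36), 18 heat shock genes (0.14) and 23 cell death regulators (0.27). Relative to the shift of 0.22 shared by all genes, the medians of the histone, immediate-early and ribosomal protein lists lay below it and that of sterol synthesis above. Without pair 3 the immediate-early and histone medians were -0.16 and -0.01. Under median-ratio scaling 2 Mediator and polymerase II genes and 1 gene each of the export, speckle, P-TEFb and MAP kinase lists passed as higher, while 0 of the CUL2 ligase genes did. In that fit 1 gene each of the luminal and HER2, short-lived mRNA, histone, nuclear-retained RNA and BET inhibitor response lists passed as lower, as did 5 interferon-response genes. Over all genes tested the same fit called 0.77% as higher and 0.202% as lower, so counts of 1 gene per list say little about a list.

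**Figure D5:**
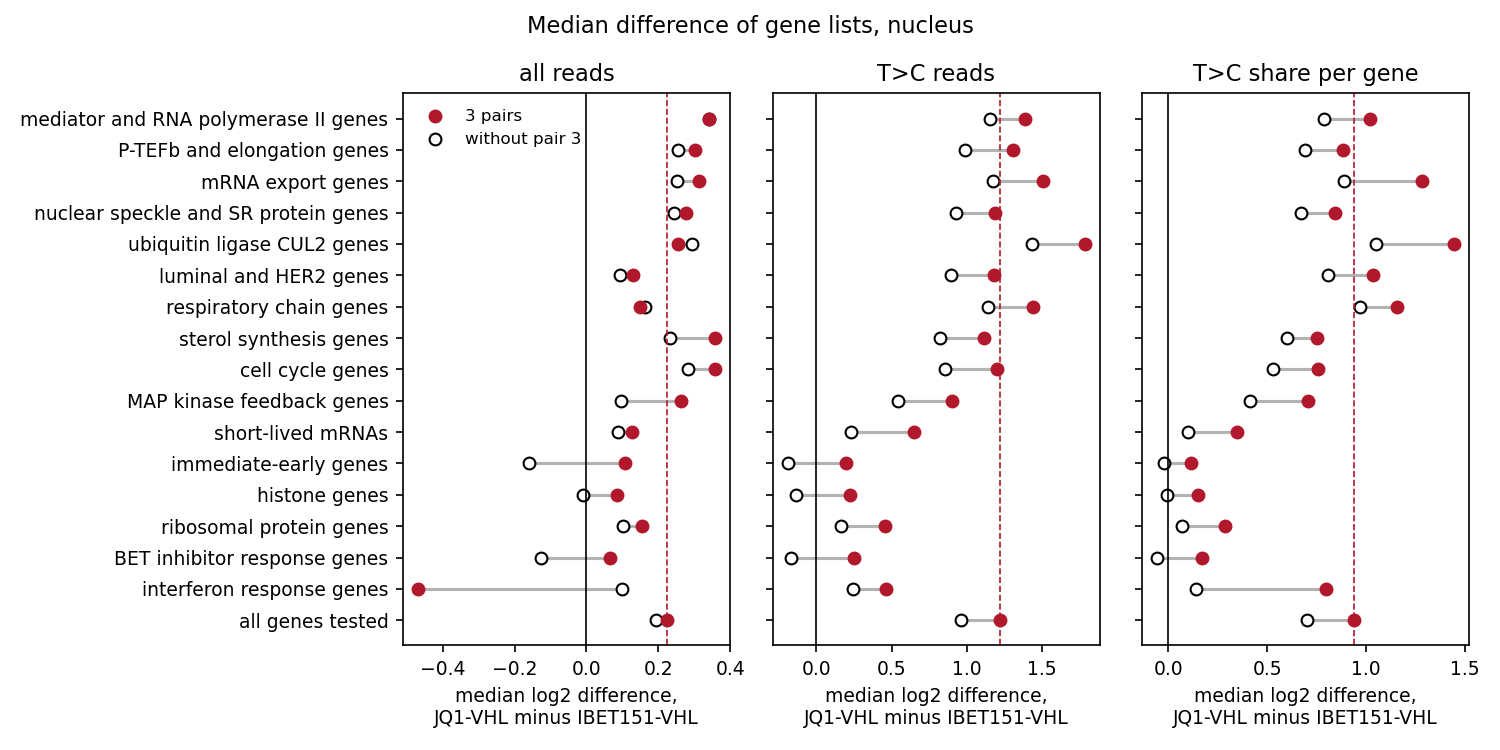
Median log2 difference, JQ1-VHL minus IBET151-VHL (horizontal axes), of 16 gene lists and of all genes tested (vertical axis), for all reads, T>C reads and the T>C share per gene (panels). Filled points use 3 pairs, open points leave out pair 3, and the dashed line is the median of all genes, 0.22 in all reads, 1.22 in T>C reads and 0.94 in the T>C share.

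Lower values under JQ1-VHL were few. FAM43A read 226, 568 and 462 units under JQ1-VHL, 363, 836 and 710 under IBET151-VHL and 516, 879 and 791 in DMSO. Its log2 difference was -0.62 (SE 0.13, adjusted p = 0.0469), and it was lower in all 3 pairs although the groups overlapped. SNX31, a sorting nexin, read 178, 216 and 289 under JQ1-VHL, 475, 266 and 477 under IBET151-VHL and 26.0, 21.2 and 23.0 in DMSO, with a log2 difference of -0.81 that missed the threshold (adjusted p = 0.0688). THEMIS, a T-cell signalling protein that was named after its values were seen, read 166, 254 and 495 against 447, 282 and 681, and 33.4, 44.2 and 32.6 in DMSO (-0.68, adjusted p = 0.11). Both of these genes lay above all DMSO libraries under either degrader, and lower under JQ1-VHL than under IBET151-VHL in each pair. For genes named by their small p, such as SNX31, 1 sign in all pairs was a condition of being named. Other low values were those of IQCN (-0.49, adjusted p = 0.0988), EPHA4, an ephrin receptor (-0.48, adjusted p = 0.0874), and the histone H4 gene H4C8 (-0.38, adjusted p = 0.0959). Under median-ratio scaling SNX31 (-1.05, adjusted p = 0.00371), FAM43A (-0.86, adjusted p = 0.00371) and THEMIS (-0.92, adjusted p = 0.0131) passed as lower, as did 5 of the interferon-response genes, the list whose sum was high in IBET151-VHL replicate 3.

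On the deposited scale no gene often read as an indicator of BET inhibition passed in limma. HEXIM1, the P-TEFb inhibitor whose transcript is known to increase under BET inhibitors, read 847, 3135 and 3490 units under JQ1-VHL and 1001, 3166 and 2962 under IBET151-VHL, a log2 difference of -0.01 with a 95% interval of -0.27 to 0.25. MYC read 8.04, 32.2 and 35.5 against 10.9, 41.5 and 29.1 units, and 225, 483 and 959 in DMSO (-0.16, interval -1.06 to 0.75). BRD2 had 0.22 with an interval of 0.03 to 0.41 (adjusted p = 0.141). The intervals exclude a difference of 1.5-fold in HEXIM1 and BRD2 but not in MYC, which stood at few reads. Of 15 BET inhibitor response genes tested, 0 passed in limma in either direction, 3 had an unadjusted p under 0.05, and the median was 0.07 and, without pair 3, -0.13. Under median-ratio scaling the list median was -0.17 and 1 of the 15, TEX14, passed as lower (-0.69, adjusted p = 0.0187), a gene named after its values were seen. The immediate-early genes EGR1 and FOS did not pass either. EGR1 read 11159, 9720 and 36422 units against 13838, 10871 and 38991, and 690, 1247 and 2151 in DMSO (-0.19, interval -0.39 to 0.01). FOS read 256, 1171 and 15014 against 370, 1138 and 8182, and 83.5, 281 and 253 in DMSO (0.13, interval -0.35 to 0.61). The nuclear RNAs NEAT1 and MALAT1, which mark paraspeckles and speckles, had 0.00 (interval -0.34 to 0.35) and -0.36 (interval -0.72 to -0.01), and MALAT1 passed as lower under median-ratio scaling (-0.60, adjusted p = 0.031).

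In T>C reads the shift towards JQ1-VHL was larger and broader. Of 8183 genes tested, 7856 had a log2 difference above 0, with a median of 1.22, and the pair medians were 0.47, 1.42 and 1.65. In pair 1, 71.2% of genes were higher under JQ1-VHL, against 93.7 and 93.8% in pairs 2 and 3. A gene could enter this test through the JQ1-VHL libraries alone, which tilts the genes tested towards that compound. With no filter 89.66% of 12634 genes lay above 0, against 96.0% with it, and the median was 1.09. Fitted without the pairs, 0 genes passed in the main limma fit or in edgeR and 514 passed in DESeq2. In the main limma fit 1561 had an unadjusted p under 0.05. With the pair as a block 2597 genes passed as higher, 31.7% of those tested, and 0 as lower, and without pair 3 the blocked fit called 142 genes (1.74%) with a median of 0.96 (0 in edgeR, also blocked). Leaving out pair 1 gave 4854 blocked calls and leaving out pair 2 gave 1, all higher. Median-ratio scaling with the block took the shift away, to a median of 0.12, and left 162 genes higher (1.98%) and 156 lower (1.91%). The calls in T>C reads below are those of the blocked fit, with its adjusted p. In the main limma fit, which had no block, none of these genes passed. Other unblocked fits called some of the 132 named genes: 1 with a pseudocount of 0.5, 26 in DESeq2 and 48 in the fit of all 14 nuclear libraries. Leaving out JQ1-VHL replicate 1 called 97 of them, and weights per library called 113.

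SLC2A10, a glucose transporter, held 34.2, 112 and 142 units of T>C reads under JQ1-VHL, 0.776, 13.8 and 2.24 under IBET151-VHL and 368, 575 and 379 in DMSO, a log2 difference of 4.23 (adjusted p = 5.66e-07, and 0.0589 without the block). Without pair 3 the blocked difference was 3.62 (adjusted p = 0.0122). ETAA1 held 19.4, 56.8 and 44.4 units against 4.66, 0 and 0 (4.40, adjusted p = 5.9e-05), and CUL5, a cullin, held 17.4, 85.2 and 64.4 against 0.776, 5.19 and 0 (4.40, adjusted p = 1.36e-05). In these genes the IBET151-VHL values were at a handful of reads, 3 reads being worth 2.01 to 6.72 units in a library, so the size of the fitted difference depends on the pseudocount of 1. EPC1, with more reads, held 151, 593 and 515 units against 49.7, 107 and 56.0, a log2 difference of 2.41 (adjusted p = 0.00025), and 2.02 without pair 3 (adjusted p = 0.0402). CCNT2 held 17.4, 114 and 86.6 against 10.1, 6.92 and 2.24, and 219, 304 and 123 in DMSO (3.12, adjusted p = 0.000259). NELFCD, of the negative elongation factor that holds paused polymerase, held 14.7, 49.3 and 22.2 against 0.776, 5.19 and 0 (3.57, adjusted p = 0.00115).

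VHL held 29.5, 70.1 and 51.1 units of T>C reads under JQ1-VHL and 1.55, 17.3 and 15.7 under IBET151-VHL (log2 difference 2.39, adjusted p = 0.00357). GATA3, the luminal transcription factor, held 540, 2408 and 2652 against 304, 1251 and 665, and 6588, 14040 and 10623 in DMSO (1.25, adjusted p = 0.022). For both genes every JQ1-VHL library was above the IBET151-VHL library of its pair, and neither had passed in all reads. DUSP6 held 77.7, 354 and 1542 units against 49.7, 173 and 363 (1.25, adjusted p = 0.0366), and without pair 3 its difference was 0.83 (adjusted p = 0.389).

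Read against the 31.7% of genes that passed in T>C reads, the lists varied widely. mRNA export genes passed in 17 of 31, CUL2 ligase genes in 9 of 16, luminal and HER2 genes in 10 of 21, speckle genes in 14 of 32, Mediator and polymerase II genes in 16 of 39, respiratory chain genes in 16 of 39 and P-TEFb and elongation genes in 10 of 26, all higher. Sterol synthesis genes passed in 7 of 18 and cell cycle genes in 9 of 28. At the other end, 0 of 75 ribosomal protein genes passed (median log2 difference 0.46), and 0 of 18 histone genes (0.23), 0 of 10 immediate-early genes (0.20) and 0 of 13 BET inhibitor response genes (0.25), in limma with the block. Without pair 3 the medians of those 4 lists were 0.17, -0.13, -0.19 and -0.17, against 0.96 over all genes, whereas that of the CUL2 ligase genes was 1.43 and that of mRNA export genes 1.18. Short-lived mRNAs passed in 3 of 34 (0.65) and MAP kinase feedback genes in 3 of 14 (0.90). The blocked fit without pair 3 called 1.74% of all genes as higher. It called 0 of 31 mRNA export, 0 of 21 luminal and HER2 and 0 of 32 speckle genes. It called 1 of 16 CUL2 ligase genes and 1 of 39 Mediator and polymerase II genes. Respiratory chain genes passed there in 2 of 39 and P-TEFb and elongation genes in 2 of 26.

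The T>C share of each gene, its T>C value over its all-read value, does not depend on the ERCC scale beyond the pseudocount. It was higher under JQ1-VHL for 7670 of 8180 genes tested, with a median log2 difference of 0.94 and pair medians of 0.32, 1.06 and 1.34. The filter on T>C values applied here too. With no filter the share was higher in 84.8% of 12634 genes, against 93.77% with it, and the median was 0.83. Without the block, as fitted for this quantity, 1105 genes passed as higher, 13.5% of those tested, and 0 as lower; with the block 1856 passed as higher (22.7%), among them all 1105, and without pair 3 the blocked fit called 163 (1.99%) with a median of 0.70. All JQ1-VHL libraries lay above all IBET151-VHL libraries in 3487 genes (42.6%) and below them in 26 (0.318%). The count changed when single libraries were left out. Leaving out JQ1-VHL replicate 1, 2 or 3 gave 8, 0 and 0 calls, and leaving out IBET151-VHL replicate 1, 2 or 3 gave 3255, 290 and 938, all higher. With the block, leaving out pair 1 gave 3645 and pair 2 gave 4.

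SLC2A10 had a T>C share of 3.91, 4.90 and 4.21% under JQ1-VHL, 0.126, 0.665 and 0.141% under IBET151-VHL and 18.6, 16.6 and 7.45% in DMSO, a log2 difference of 3.66 (SE 0.56, adjusted p = 0.00701). RREB1, a zinc-finger factor of RAS signalling, had 4.13, 7.35 and 5.49% against 0.279, 1.46 and 0% (3.51, adjusted p = 0.0188). SMARCA4, the ATPase of SWI/SNF remodellers, had 0.265, 0.907 and 0.400% against 0.0255, 0.122 and 0% (3.47, adjusted p = 0.0224). In each of them all JQ1-VHL libraries were above all IBET151-VHL libraries, and SLC2A10 remained below its DMSO range. RREB1 and SMARCA4 had no T>C reads in IBET151-VHL replicate 3. The size of such differences depends on the pseudocount of 1, as for other genes with few T>C reads. MED1, the Mediator subunit that nuclear receptors contact, had 4.33, 4.36 and 3.11% against 1.70, 1.05 and 0.643% (1.87, adjusted p = 0.015). VHL had 5.09, 3.99 and 3.56% against 0.321, 1.35 and 1.03% (2.18, SE 0.54, adjusted p = 0.0224).

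The lists are read against the 13.5% of all genes whose share passed. Luminal and HER2 genes passed in 8 of 21, all higher. GATA3 had a share of 4.95, 6.08 and 6.36% under JQ1-VHL, 3.51, 3.53 and 1.85% under IBET151-VHL and 12.2, 14.2 and 6.74% in DMSO (log2 difference 1.02, SE 0.28, adjusted p = 0.0299). XBP1, a secretory-pathway factor of luminal cells, had 4.38, 4.71 and 7.24% against 2.67, 2.46 and 1.57% (1.29, adjusted p = 0.0155). AGR2, a disulfide isomerase, passed as well (2.37, adjusted p = 0.02). GATA3 and XBP1 did not overlap between the compounds. Speckle genes passed in 12 of 32, among them ACIN1 at 6.16, 9.44 and 5.26% against 2.92, 3.17 and 1.17% (1.59, adjusted p = 0.0249), SRRM1 (1.99), SON (1.18) and RBM25 (1.32). P-TEFb and elongation genes passed in 7 of 26, including NELFA (3.43), NELFCD (3.35) and the PAF complex genes LEO1 (2.03) and CTR9 (1.75). Mediator and polymerase II genes passed in 7 of 39, respiratory chain genes in 8 of 39 and mRNA export genes in 5 of 31, XPO1 (1.31) and POLDIP3 among them. CUL2 ligase genes passed in 3 of 16, which were VHL, RBX1 (1.52) and UBE2R2 (1.74), all higher. Blocked and without pair 3, the share passed in 1.99% of all genes. In that fit 1 of 21 luminal and HER2, 2 of 26 P-TEFb and elongation and 2 of 39 respiratory chain genes passed. CUL2 ligase genes passed there in 1 of 16, speckle genes in 0 of 32, Mediator and polymerase II genes in 0 of 39 and export genes in 0 of 31.

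Some genes kept a high share of T>C reads under both compounds. SNX6, a retromer-associated sorting nexin, had 43.5, 42.4 and 44.7% under JQ1-VHL, 42.3, 45.6 and 46.5% under IBET151-VHL and 43.0, 46.1 and 45.5% in DMSO, a log2 difference of -0.04 with a 95% interval of -0.43 to 0.35. TAFA2, a secreted chemokine-like protein, had 92.5 to 94.2% under JQ1-VHL and 88.2 to 93.6% under IBET151-VHL (0.02, interval -0.39 to 0.43). These near-constant shares included DMSO replicate 3, whose overall T>C share was the lowest of its group. Whether positions that differ from the reference genome were masked before T>C reads were called is not given in the sources used here, so these shares need not be newly made RNA, and their origin was not tested. FOS had 40.3, 47.2 and 59.4% against 40.8, 49.7 and 51.5% (0.04, interval -0.52 to 0.60). EGR1 had 28.7, 34.1 and 39.8% against 25.4, 37.0 and 23.0% (0.28, interval -0.20 to 0.76). HEXIM1 had a log2 difference of 0.48 (interval -0.36 to 1.33) and MYC of -0.86 (interval -2.29 to 0.56). A share passed in 0 of 75 ribosomal protein genes (median 0.29), 0 of 18 histone genes (0.15), 0 of 10 immediate-early genes (0.12) and 0 of 13 BET inhibitor response genes (0.17) in limma, with 1105 calls over all genes.

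By exon class the T>C share passed with the block in 19.8% of 1-exon genes, 9.76% of 2-exon genes, 17.4% at 3 to 4 exons, 19.8% at 5 to 8, 24.1% at 9 to 16 and 28.6% at 17 or more. This order differs from that of the all-read calls, which were most frequent at 1 exon; the difference between the orders was not tested.

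The cytoplasm of the same treatments gave few calls. Of 11773 genes tested there, 4 passed as higher under JQ1-VHL (0.034%) and 0 as lower, with a median log2 difference of 0.00, and all 4, which are EPC1, CCDC174, IRF2BPL and a gene without a symbol, had also passed in the nucleus. EPC1 had 1.44 (adjusted p = 0.0014). Without the block 0 genes passed there in limma, and 393 had an unadjusted p under 0.05. Of the 379 genes called in the nucleus 378 were tested in the cytoplasm, and 345 of these (91.27%) lay above 0 with a median of 0.26, against 50.41% of all genes tested. The nuclear minus the cytoplasmic difference passed in 0 of 11714 genes in limma (1798 at an unadjusted p under 0.05), so no gene was shown to differ between the fractions, and leaving out pair 1, 2 or 3 gave 33, 81 and 0 genes.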

How the data were processed

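Per the labels' protocols, 3′ end libraries of polyadenylated nuclear RNA were read as single reads of 100 bp. The submitters' processing notes name bcl2fastq, Trimmomatic 0.39, HISAT2, HTSeq and DESeq2, and the builds GRCh37, hg19 and dm3. The rule by which a read counted as T>C is not given in the sources used here. The deposited signal values (16482 genes in all reads, 13029 with T>C reads) are read counts that the authors scaled to ERCC RNA. Dividing each library by its smallest step gave whole reads for 100% of values (tolerance 0.001). Symbols came from gene tables, and 475 and 243 genes without one were tested but not named.

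The members, gene lists and tests were chosen with earlier results of these data known. A gene was tested when at least 3 of the 6 libraries reached 10 units (all reads) or 5 (T>C). limma 3.58.1 (R 4.3.3) with a variance trend was fitted to log2(value + 1). All reads were fitted with the pair as a block, and T>C reads and the T>C share per gene, log2((T>C + 1)/(all + 1)), without it. Benjamini-Hochberg adjustment covered every gene of a fit, and an adjusted p under 0.05 passed. To check the pairing, each library's deviation from its group mean was correlated with that of its same-numbered partner, giving 0.47, 0.42 and 0.22 for all reads, and 0.09, 0.17 and 0.10 for T>C reads. Pairing rests on the all-read check, and blocked values stand beside the T>C results. Sums were compared by exact two-sided permutation tests (smallest p 0.1, or 0.25 within pairs). Intervals of differences are 95% intervals of the linear model.

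Named genes were, per fit, the 10 largest that passed in each direction with a mean of at least 50 units (20 for T>C) and 1 sign in all pairs, or the 5 smallest p where fewer than 5 passed. Added to these were the 4 smallest p of each of 28 lists and 20 fixed genes. The list of BET protein genes and some genes that this rule names are not reported here. Other settings tried were the pseudocounts 0.5 and 5, a filter removed or raised 5 times, median-ratio scaling, a fit of all 14 nuclear libraries, library weights, the other block choice, omission of libraries or pairs, DESeq2 1.42.0, and edgeR 4.0.16 by its quasi-likelihood test, both on recovered reads. Combinations of the block with another setting in T>C reads or shares, edgeR or median-ratio scaling without pair 3, and the sums without pair 3 were chosen after seeing the data. The limma fits of all reads and of T>C reads were tested on simulated reads, and the other fits and tests were not. The simulated replicates had equal mean values and no shift common to all genes, unlike the libraries compared here. With the block, limma found 36 of 67 all-read genes altered 1.5-fold, 59 of 67 altered 2-fold and 66 of 66 altered 4-fold among 13369, with 7 of 13169 unaltered genes called. For T>C reads (8183 genes) with the block it found 0 of 67 genes altered 1.5-fold, 2 of 67 altered 2-fold and 45 of 66 altered 4-fold. Without the block it found 0 of 67, 0 of 67 and 0 of 66. Promoters were matched to RefSeq by symbol, and gene structures came from GENCODE release 29, whose build may differ from the authors'. Histone genes and other near-identical copies can share reads. Figures used matplotlib 3.10.9 (Python 3.11.15).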

Additional observations from a re-analysis of the deposited data

How the results depend on the processing

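The T>C share of all reads was higher under JQ1-VHL in every alternative run, whereas the sums depended on the scale: median-ratio scaling gave log2 differences of -0.089 for all reads (main value 0.15) and -0.33 for T>C reads (0.86), and leaving out single libraries moved the all-read sum between -0.38 and 0.71, below 0 without JQ1-VHL replicate 2 or 3 or IBET151-VHL replicate 1. The 380 all-read calls became 0 with no replicate block, 0 in a fit of all 14 nuclear libraries, 2 with no filter on low values, 130 under median-ratio scaling (85 of that kind without pair 3), 979 with weights per library and 1240 in DESeq2. Leaving out a pair gave 0 (pair 3) to 2273 (pair 1) calls, and edgeR without pair 3 gave 0. The T>C reads had 0 calls without the replicate block, 1 with a pseudocount of 0.5, 514 in DESeq2, 1352 in the fit of all 14 nuclear libraries and 6482 with weights per library, and leaving out single libraries gave 0 to 5403 calls, the latter without JQ1-VHL replicate 1. With the replicate block there were 2597 calls, 1317 with the filter at 5 times the minimum, 2563 in DESeq2, 2049 in edgeR, 318 under median-ratio scaling, and 4854, 1 and 142 without pair 1, 2 and 3. In that median-ratio fit 156 genes passed as lower. Among the named genes, 5 turned lower under JQ1-VHL and passed: FOS (-1.01), JUN (-0.94), JUND (-0.90), KDM5B (-0.94) and MALAT1 (-1.13). The 1105 calls of the T>C share became 681 with no filter, 679 with a pseudocount of 5, 3638 with weights per library, 1856 with the replicate block and, blocked, 3645, 4 and 163 without pair 1, 2 and 3; leaving out single libraries gave 0 (without JQ1-VHL replicate 2 or 3) to 3255 (without IBET151-VHL replicate 1). The nuclear minus cytoplasmic difference had 0 to 81 calls when a pair was left out. Of the named genes' values under all alternatives, 1687 in all reads kept their side of the threshold, 112 gained a call and 291 lost one. A change of sign in a gene that did not pass was not counted as a change. In T>C reads these numbers were 2399, 650 and, lost, none, since no gene passed in the main fit, and in the T>C share 1621, 105 and 300. In 1 of the fits with weights per library the weights did not converge. The cause of these changes was not tested. Low T>C counts under IBET151-VHL, where 3 reads are worth 2.33 to 6.72 units, limit the size of differences in single genes.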
